A study of Bos indicus with 55 samples.

Results

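The miR-302 and miR-371 clusters are microRNAs (miRNAs) of pluripotent and early embryonic cells, and they were measured here in extracellular vesicles (EVs), the membrane particles that cells release, from cattle conceptuses. The members were the entries bta-miR-302a, bta-miR-302b, bta-miR-302c, bta-miR-302d, bta-miR-367 and bta-miR-371 (written below without the prefix for cattle), chosen by name, and all 6 were found among the 1024 miRNA entries of the EV count table. The table holds 28 EV libraries, each from the medium of 1 day 16 conceptus cultured for 6 h. Of these, 7 were male and 5 female conceptuses from nuclear transfer (NT, cloning), 3 male and 7 female from in vitro fertilisation (IVF), and 3 male and 3 female from artificial insemination (in vivo). The labels name the organism as Bos indicus, while the series text names the conceptuses as taurine cattle. No source used here names the donor cells of the NT conceptuses, so their sex and their donor cells cannot be told apart.

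In human and mouse, miR-302a to d and miR-367 are cut from 1 transcript, whose gene lies in an intron of LARP7, and the transcript is switched on by the factors that keep cells pluripotent. The seed of a miRNA is the stretch near its 5′ end that pairs with target mRNAs. In human, miR-302 shares its seed with miR-372 and miR-373 of the miR-371 cluster, whereas miR-371a-3p has a similar but shifted seed; the miR-17 family also carries a related one. miR-302 is known to act on cell cycle and TGF-beta signalling genes. Human miR-367 instead has the seed of the miR-25 and miR-92 family. The let-7 family accumulates as cells differentiate and opposes this group. No source used here says which arm of its hairpin the entry miR-371 stands for.

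Library totals were between 39263 and 603579 counts, and the members together took 0.00242 to 1.04% of a library's counts (median 0.134%). Depth therefore sets a coarse limit, since miR-302b, the most abundant member, had a median of 48.5 counts per library. Levels are given in CPM, counts scaled to a common library total after TMM (trimmed mean of M values) correction. A total over a whole vesicle preparation cannot tell fewer vesicles of a kind from less miRNA per vesicle. The replicates are different conceptuses. Cell type markers could be checked only as miRNAs. All 6 of 6 epithelial markers (the miR-200 family and miR-205) had counts in some library. So did 7 of 7 blood, 5 of 5 mesenchymal, 3 of 3 muscle, 1 of 1 liver and 2 of 3 neuronal markers. Having a count therefore does not set the epithelial markers apart. The erythrocyte miRNA miR-451 and the other blood markers summed to 591.9 to 4688 CPM in NT male and 234.8 to 8360 CPM in NT female libraries.

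Among the members, bta-miR-302b was the most abundant, at rank 68 of the table by mean CPM, followed by miR-302a at rank 78, miR-302d at 100, miR-371, and miR-302c at 193. Over all libraries they gave 3228 counts for miR-302b, 2379 for miR-302a, 1490 for miR-302d, 532 for miR-371 and 228 for miR-302c. Of the 28 libraries, 28 held a count of miR-302b, 26 of miR-302a, 25 of miR-302d, 23 of miR-371 and 19 of miR-302c.

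miR-367, the member with the other seed, had 1 count in all. That count was in IVF female replicate 3, the library with the most miR-302 counts (1814), and it is 0.0248 per 100000 counts of the whole table with an exact 95% Poisson interval of 0.000629 to 0.138. This interval, like the other intervals and limits here, covers counting error only. With a single count it entered no test that used a filter on low counts, and its folds without that filter are not given. For the seed it shares in human, the other carriers were abundant: miR-25, miR-32, miR-92a, miR-92b and miR-363 summed to 5168 to 16100 CPM in NT male and 7329 to 11340 CPM in NT female libraries.

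miR-302b was present in every library, at levels from 15.1 to 5177 CPM. In NT males replicates 1 to 7 it had 3169, 46.1, 1012, 1048, 612.2, 2138 and 422.2 CPM, and in NT females replicates 1 to 5 it had 162, 494.3, 52.5, 78.9 and 109.4 CPM. In IVF males it had 1827, 2064 and 15.1 CPM, and in IVF females 151.8, 104.6, 5177, 3979, 2575, 1285 and 260.8 CPM. In vivo males had 658.1, 321.4 and 63.5 CPM and in vivo females 634.7, 50.8 and 177.9 CPM. Libraries above the highest in vivo library (658.1 CPM) occurred in NT males and in both IVF sexes, NT females stayed below it, and each of the 6 groups had a library under 200 CPM.

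bta-miR-302a followed nearly the same order of libraries. NT males had 2421, 0, 786.9, 678.2, 408.1, 1607 and 342.1 CPM, and NT females 108, 259.5, 46.9, 59.2 and 36.5 CPM. IVF males had 1484, 1363 and 0 CPM, and IVF females 53.1, 32.7, 4426, 2669, 1938, 875.7 and 158.7 CPM. In vivo males had 258.1, 118.4 and 19.3 CPM, and in vivo females 464.7, 36.3 and 144.5 CPM. IVF female replicate 3 was again the highest library, and NT male replicate 2 and IVF male replicate 3 held no count.

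miR-302d was at 0 to 1653 CPM in NT males and 0 to 222.5 CPM in NT females, 0 to 2106 CPM in IVF and 14.5 to 294.7 CPM in vivo. miR-302c, the rarest of the miR-302 members, was at 7.69 to 177.1 CPM in NT males, 0 to 86.5 CPM in NT females, 0 to 456 CPM in IVF and 0 to 64.5 CPM in vivo. It held no count in 9 libraries.

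**Figure D1:**
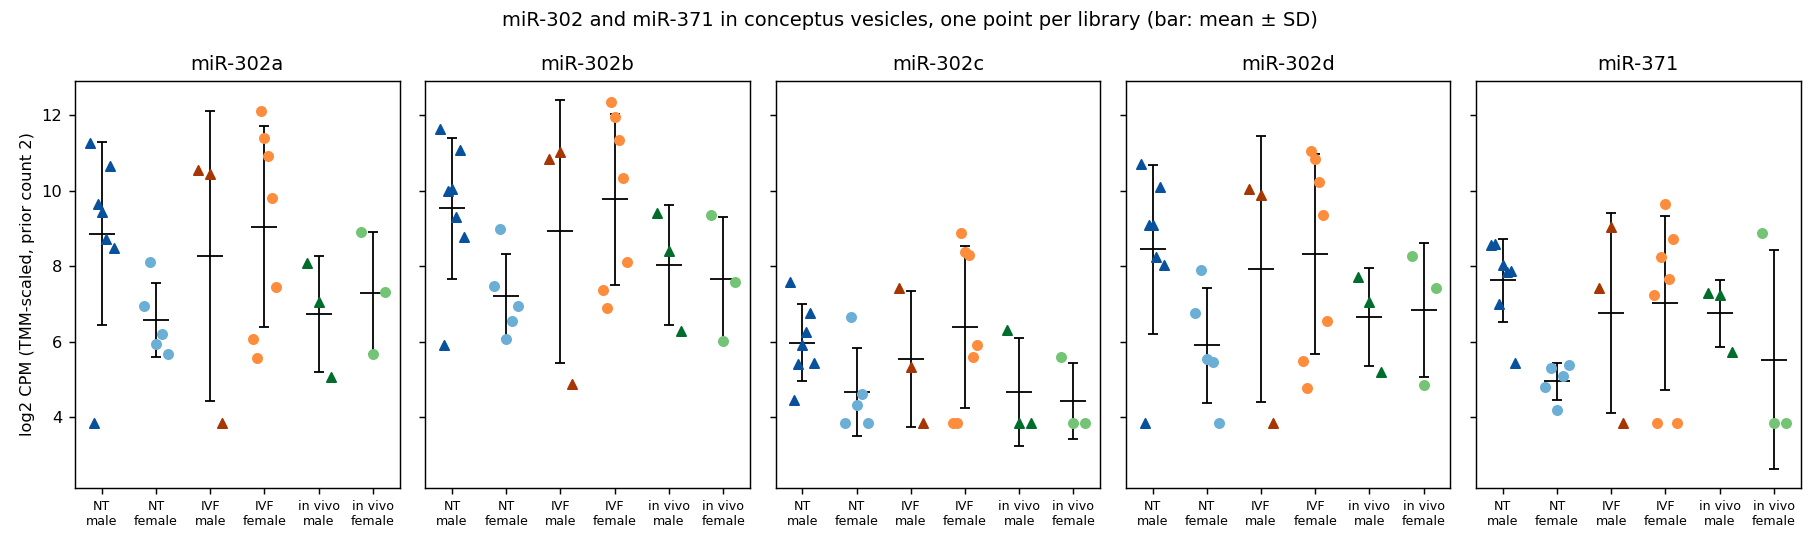
Level of 5 members in each EV library on a log2 CPM scale (TMM-scaled, prior count 2), with 1 point per library and bars for the mean ± SD of each group. NT males lie mostly above NT females, IVF libraries span the whole range, from 15.1 to 5177 CPM for miR-302b, and in vivo libraries reach at most 658.1 CPM.

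The make-up of miR-302 was then compared. In the 13 libraries with at least 100 miR-302 counts, miR-302b made up 40.6 to 47.0% of them (median 43.4%), miR-302a 29.4 to 36.4% (32.5%), miR-302d 17.3 to 23.8% (22.1%) and miR-302c 0.592 to 5% (2.39%). These libraries were 6 NT male, 2 IVF male, 4 IVF female and 1 in vivo female library, and no NT female library reached that count. The order b, a, d, c was the same in all 13. Libraries with fewer counts did not all have this make-up: miR-302b was 64.5% of 62 counts in IVF female replicate 1 (exact 95% interval 51.3 to 76.3%), 69.6% of 23 in IVF female replicate 2 (47.1 to 86.8%) and 75% of 16 in NT female replicate 5 (47.6 to 92.7%). In the in vivo males it was 56.0% of 91 counts (45.25 to 66.44%), 57.6% of 33 (39.22 to 74.52%) and 60.5% of 38 (43.39 to 75.96%). These intervals of the in vivo males reach into the range of the 13 libraries. No source used here says how reads that match several of these similar miRNAs were counted, so the split among them is uncertain.

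**Figure D2:**
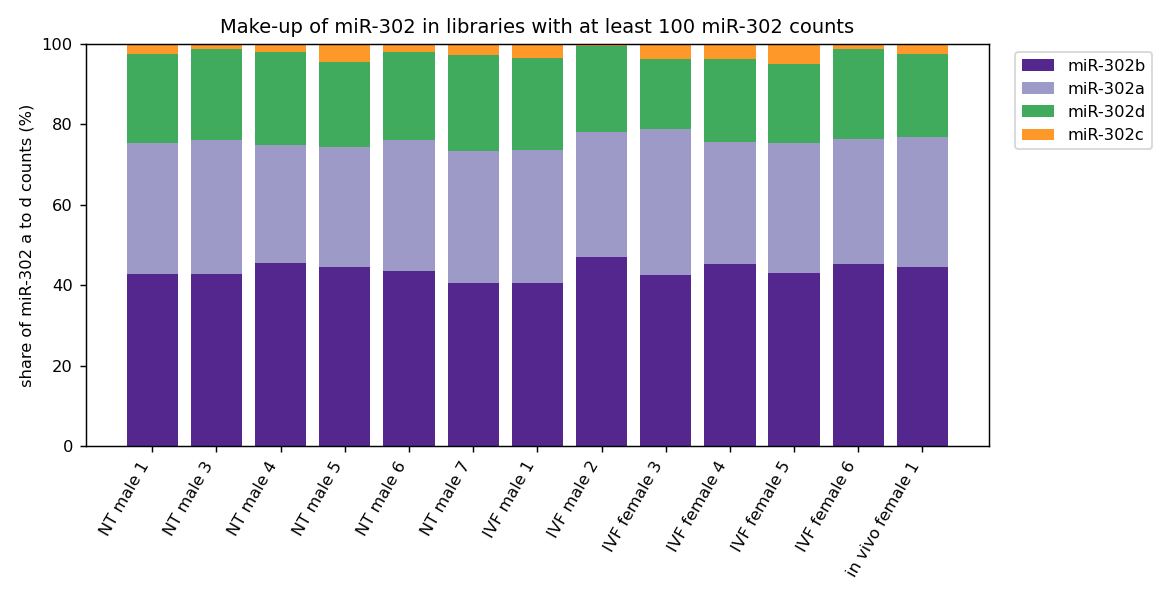
Share of miR-302a, b, c and d in the summed miR-302 counts (%), for each of the 13 libraries with at least 100 such counts. miR-302b lies between 40.6 and 47.0% and miR-302c at or below 5% in each bar.

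As a description over the 28 libraries, which share a total and hence a scale, the log2 CPM of miR-302a and miR-302d had a Spearman rho of 0.985, miR-302a and miR-302b of 0.98, and miR-302b and miR-302d of 0.965. miR-302c was at 0.806 to 0.837 with these members. miR-371, which is not made from the miR-302 transcript, was at 0.657 to 0.691 with them and at 0.578 with miR-302c.

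The per-library values show where bta-miR-371 parted from miR-302. In NT males replicates 1 to 7 miR-371 had 364.1, 369, 112.4, 246.6, 214.3, 221.6 and 29.1 CPM, and in NT females 13.5, 24.7, 3.75, 19.7 and 27.3 CPM. IVF males had 157.7, 506.2 and 0 CPM, and IVF females 136.7, 0, 288.4, 789.1, 187.2, 409.4 and 0 CPM. In vivo males had 11, 8 and 14 counts, a mean of 105.3 ± 57.8 CPM (SD, n = 3), and in vivo females 453.3, 0 and 0 CPM. All 12 NT libraries and all 3 in vivo male libraries held at least 1 count, and the other groups each had libraries with none.

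As a share of miR-371 plus miR-302 counts, miR-371 made up 87.3% in NT male replicate 2 (48 of 55 counts, exact Clopper-Pearson 95% interval 75.5 to 94.7%) and 36.7% in IVF female replicate 1 (27.2 to 47.1%). The other libraries lay between 0 and 26.9%. In IVF female replicate 7 the share was 0 of 96 counts, with an upper bound of 3.77%, and in in vivo female replicate 3 it was 0 of 43 counts, with an upper bound of 8.22%. NT male replicate 2 was thus the highest NT library in miR-371 and the lowest in miR-302, with 7 miR-302 counts.

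**Figure D3:**
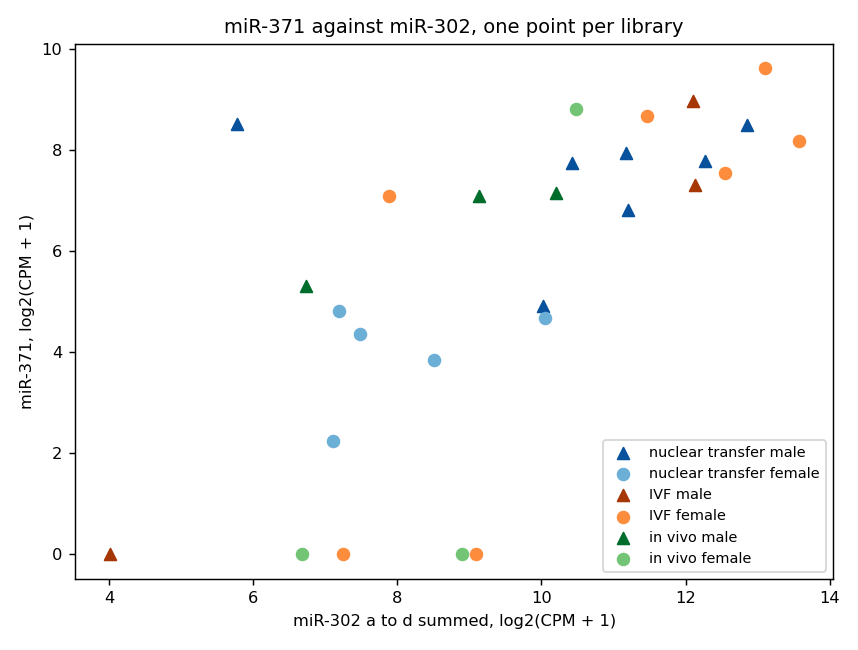
miR-371 against summed miR-302a to d, both as log2(CPM + 1), with 1 point per EV library coloured by group. NT male replicate 2 stands at the upper left, with 369 CPM of miR-371 beside 53.8 CPM of miR-302, and the 5 libraries on the lower edge hold no miR-371 count.

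The study's first question is how the conceptus type bears on the vesicle cargo. NT EVs averaged 778.7 ± 968 CPM of miR-302b (SD, n = 12), IVF EVs 1744 ± 1770 CPM (n = 10) and in vivo EVs 317.7 ± 272.7 CPM (n = 6). The summed miR-302 averaged 1780 ± 2266 CPM in NT, 3960 ± 4110 CPM in IVF and 640.8 ± 550.6 CPM in vivo. miR-371 averaged 137.2 ± 139.5 CPM in NT, 247.5 ± 257.3 CPM in IVF and 128.2 ± 171.4 CPM in vivo. Each SD was about as large as its mean, and the ranges of the types overlapped for every member.

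Tests used edgeR's quasi-likelihood F-test on the counts, with p-values adjusted by the Benjamini-Hochberg method over all entries tested and a threshold of 0.05. Of the 6 members, 5 passed the filter on low counts, among 240 entries in all, and miR-367 did not.

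Between NT and IVF, with sexes weighted equally, no member passed the threshold, where 1.25% of the tested entries did. The log2 fold changes were −1.97 (SE 0.85) for miR-302a, −1.78 (SE 0.75) for miR-302b, −1.54 (SE 0.96) for miR-302c, −1.79 (SE 0.88) for miR-302d and −1.93 (SE 0.88) for miR-371. The adjusted p was 0.428 for 4 of them and 0.544 for miR-302c. At an unadjusted p under 0.05 stood miR-302a, miR-302b and miR-371, where 10% of the tested entries did. With the log2 share of library counts taken by miR-2887 and miR-2904 as a covariate, the folds were −0.55 for miR-302a, −0.56 for miR-302b, −0.24 for miR-302c, −0.46 for miR-302d and −0.65 for miR-371 (adjusted p 0.8891 to 0.9819).

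Between IVF and in vivo EVs, edgeR called 0 of 240 entries, 0% (DESeq2 called 13 and limma voom 22, with 0 members in each), and 39 entries, 16.2%, had an unadjusted p under 0.05. The members' folds were 2.82 (SE 1.12) for miR-302a, 2.34 (SE 0.96) for miR-302b, 2.77 (SE 1.30) for miR-302c, 2.52 (SE 1.14) for miR-302d and 0.94 (SE 1.03) for miR-371 on the log2 scale. The adjusted p was 0.226 to 0.271 for the miR-302 members, each with an unadjusted p under 0.05, and 0.705 for miR-371. With the same covariate, the folds were 0.86 for miR-302a, 0.36 for miR-302b, 1.05 for miR-302c, 0.40 for miR-302d and −1.03 for miR-371 (adjusted p 0.8708 to 0.9332 for the miR-302 members). Left out singly, IVF male replicate 3, the library with 1 miR-302 count, brought the number of called entries to 21.

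Between NT and in vivo EVs, the folds were 0.85 (SE 1.00) for miR-302a, 0.56 (SE 0.86) for miR-302b, 1.23 (SE 1.25) for miR-302c, 0.73 (SE 1.04) for miR-302d and −0.998 (SE 0.964) for miR-371, with adjusted p from 0.652 to 0.756. No member passed the threshold, where 0.417% of the tested entries did. The fold of miR-371 was 2.63 without in vivo female replicate 1, the one female in vivo library that held it.

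**Figure D4:**
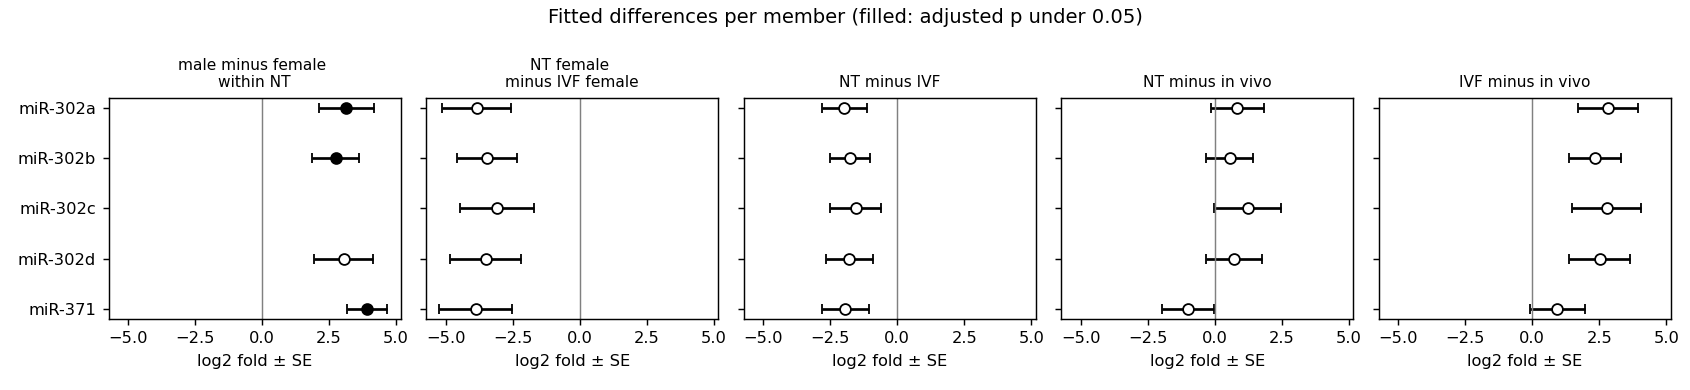
Fitted log2 fold change ± SE of each member in 5 comparisons, with filled points where the adjusted p was under 0.05. The sex comparison is fitted within NT, where miR-302c was not tested, and the others in the fit of 6 groups; the filled points are miR-302a, miR-302b and miR-371 in NT males against NT females.

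The labels also give the sex of each conceptus, and among NT conceptuses 3 of the members differed with it. miR-371 averaged 222.4 ± 123.6 CPM in NT males (SD, n = 7) and 17.8 ± 9.47 CPM in NT females (n = 5). NT females held 1 to 3 miR-371 counts each, so this member passed the filter on low counts only through the males, where it was high. With that limit its log2 fold was 3.91 (SE 0.76) with an edgeR adjusted p of 0.00546, and in the fit without a filter, over 580 entries, it was 3.86 (SE 0.89, adjusted p = 0.000875). All 7 males were above the highest female, though the margin was 29.1 CPM (4 counts) against 27.3 CPM (3 counts). Ranges that do not overlap, higher in males, were found for 2.78% of the 180 entries tested. miR-302a, at 891.8 ± 840.4 CPM in NT males and 102 ± 92.2 CPM in NT females, rose by 3.15 (SE 1.013, adjusted p = 0.0349), with 6 of 7 males above the highest female.

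miR-302b, at 1207 ± 1088 CPM in NT males and 179.4 ± 180.7 CPM in NT females, rose by 2.75 (SE 0.88, adjusted p = 0.0349), with 5 of 7 males above the highest female. miR-302d was at 3.04 (SE 1.10, adjusted p = 0.0571) and did not pass. Like miR-371, these 3 miR-302 members passed the filter on low counts only through the males, where they were high. In the edgeR fit without a filter, the fold was 3.18 (SE 0.74, adjusted p = 0.000926) for miR-302a. There it was 2.81 (SE 0.70, adjusted p = 0.00215) for miR-302b and 3.10 (SE 0.76, adjusted p = 0.00192) for miR-302d. miR-302c fell under the filter within NT; fitted without a filter it was at 1.81 (SE 0.92, adjusted p = 0.2015). The exception among males was replicate 2, which held no miR-302a or miR-302d count and was below every NT female in miR-302b. Within NT, 13.3% of the tested entries were called higher in males and 8.89% lower, so these 3 calls stand among many.

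The miR-302 calls rested on each of several libraries. The adjusted p of both miR-302a and miR-302b lay above 0.05, at up to 0.0865, in 9 of the 12 fits that left out 1 NT library, namely without males 1, 3, 4, 5 or 6 or females 1, 3, 4 or 5. miR-302d passed without male 2 (adjusted p = 0.0278), male 7 (0.0451) or female 2 (0.0293). miR-371 fell under the filter without male 1, 2, 4, 5 or 6, so those fits do not show whether its call would hold. In the 7 left-out fits that tested it, miR-371 passed in all 7, with an edgeR adjusted p of 0.000926 to 0.0269. In the fit of all 6 groups 0 members were called: the folds were 3.68 (SE 1.34) for miR-371, 3.15 (SE 1.25) for miR-302a and 2.77 (SE 1.09) for miR-302b, with edgeR adjusted p of 0.0675, 0.0973 and 0.0933 in that order.

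Another property of the libraries moved with the members. The entries miR-2887 and miR-2904 are bovine miRNA entries known to overlap ribosomal RNA fragments, but their sequences were not checked here. Their share is used as a property of each library, and what sets it was not tested. These 2 entries took 30.3 to 59.4% of the counts in NT males (median 44.6%) and 5.17 to 44.5% in NT females (median 24.4%). With the log2 of this share as a covariate, edgeR called 0 of 180 entries within NT (26 at an unadjusted p under 0.05), and the sex fold was 2.84 for miR-371 (adjusted p = 0.1745), 2.08 for miR-302a (0.439), 1.52 for miR-302b (0.4755) and 1.90 for miR-302d (0.491). With the 2 entries taken out of the table, the folds were 3.88 for miR-371 (adjusted p = 0.00506), 3.14 for miR-302a (0.0311) and 2.74 for miR-302b (0.0311). The part of this share, or of what sets it, in the sex difference was not tested further.

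Over all 28 libraries, the log2 CPM of miR-302b and the log2 share of miR-2887 plus miR-2904 had a Pearson r of 0.813 and a Spearman rho of 0.849. The permutation p, two-sided over 100000 permutations, was 1e-05 for each, the smallest they can give, and 1.25e-05 adjusted over the 10 relations computed. Without the 2 libraries farthest from the median share, r was 0.844. Within types, rho was 0.769 in NT (n = 12), 0.794 in IVF (n = 10) and 0.899 in vivo (n = 6). For miR-371 r was 0.728 and rho 0.765 (adjusted permutation p 1.25e-05), with r = 0.805 without the same 2 libraries and rho of 0.636 within NT, 0.89 within IVF and 0.765 in vivo. Both measures come from the same library and share its total.

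Inside IVF, libraries with small and with large shares also differed in miR-302. The 4 IVF libraries with the smallest shares, from 8.80 to 24.0%, had 15.1 to 544.2 CPM of summed miR-302, and the other 6, from 48.1 to 76.3%, had 2832 to 12160 CPM. The cut was set by hand and falls in the gap between 24.0 and 48.1%. Among the other 6 the order was not kept. The smallest share, 48.1% in IVF female replicate 3, went with the highest level, 12160 CPM. The let-7 family summed to 110400 to 132200 CPM in those 4 and to 28810 to 62790 CPM in the other 6.

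**Figure D5:**
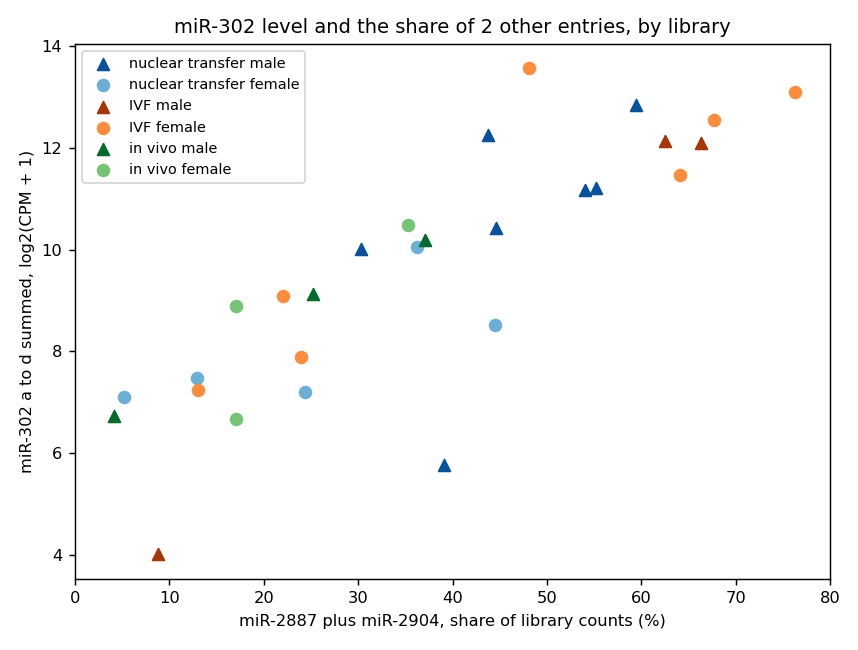
Summed miR-302a to d as log2(CPM + 1) against the share of library counts taken by miR-2887 plus miR-2904 (%), with 1 point per EV library coloured by group. Libraries with larger shares mostly have higher miR-302, and NT male replicate 2 lies low for its share of 39.1%. Levels also differ at like shares: NT female replicate 1 (44.54%) has 364.5 CPM and NT male replicate 5 (44.57%) has 1372 CPM.

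Averaged over the 3 types, the male minus female folds were 0.60 for miR-302a, 0.82 for miR-302b, 0.40 for miR-302c, 0.74 for miR-302d and 0.98 for miR-371 on the log2 scale, with adjusted p of 0.743 to 0.874, and edgeR called 0% of entries (9 at an unadjusted p under 0.05; DESeq2 and voom also called 0). In IVF the females averaged higher than the 3 males in miR-302b, which was at 1302 ± 1121 CPM in males and 1933 ± 2035 CPM in females. The IVF males were at 1827, 2064 and 15.1 CPM, so this order of the averages rests on male replicate 3, with 1 count. In vivo, miR-302b was at 347.7 ± 298.2 CPM in males and 287.8 ± 307 CPM in females (n = 3 each). Within IVF, edgeR called 0 of 200 entries (1 at an unadjusted p under 0.05), and within in vivo 0 of 154 (0 at an unadjusted p under 0.05).

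The difference of the sex effects was tested itself. The NT sex effect minus the IVF sex effect was 3.76 (SE 1.87) for miR-302a, 3.33 (SE 1.63) for miR-302b, 3.08 (SE 2.03) for miR-302c, 3.42 (SE 1.91) for miR-302d and 3.88 (SE 1.92) for miR-371, with adjusted p of 0.482 to 0.551. Here edgeR called 0% of entries (23 at an unadjusted p under 0.05, 9.58%) and DESeq2 1. The NT minus in vivo sex effects were 3.88 for miR-302a, 2.50 for miR-302b, 0.92 for miR-302c, 3.58 for miR-302d and 4.23 for miR-371 (adjusted p 0.257 to 0.898), where edgeR called 0% (45 unadjusted) and DESeq2 11. The sex effect in NT was therefore not shown to differ from that in IVF or in vivo.

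In females alone, the types were compared as well. miR-302b was at 179.4 ± 180.7 CPM in NT females (n = 5) and 1933 ± 2035 CPM in IVF females (n = 7). The log2 folds were −3.85 (SE 1.30) for miR-302a, −3.44 (SE 1.12) for miR-302b, −3.08 (SE 1.39) for miR-302c, −3.50 (SE 1.32) for miR-302d and −3.88 (SE 1.36) for miR-371. The adjusted p was 0.236 for 4 members and 0.31 for miR-302c, and edgeR called 0% of entries (36 unadjusted, 15%). DESeq2 called 11 entries, of which 4 were miR-302a, miR-302b, miR-302d and miR-371 (adjusted p 0.0228 to 0.0409), while limma voom called 3 and none of the members. With the share of miR-2887 and miR-2904 as a covariate, the fold of miR-302b was −1.37 (adjusted p = 0.8436).

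The other comparisons within 1 sex gave no member call in edgeR either. Between NT females and in vivo females, which had 287.8 ± 307 CPM of miR-302b (n = 3), edgeR called 0% of entries (11 unadjusted, 4.58%). Between NT males and IVF males, at 1207 ± 1088 CPM of miR-302b in NT males (n = 7) and 1302 ± 1121 CPM in IVF males (n = 3), it called 0% (16 unadjusted, 6.67%). Between NT males and in vivo males it called 0% (54 unadjusted, 22.5%), while DESeq2 called 23 entries and limma voom 12.

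The related miRNAs were taken from lists. Of the miR-17 seed relatives, 3 of 8 were tested in NT males against NT females and none passed, with a median fold of 0.80 beside 0.05 over all entries; miR-17-5p itself was at 1.56 (SE 0.69, adjusted p = 0.111). Between IVF and in vivo EVs miR-17-5p was at 2.15 (SE 0.80, adjusted p = 0.174). Of the let-7 family, 9 of 9 were tested in the NT sex comparison, and all 9 folds were lower in males, with a median of −1.38. Of these, 3 passed the threshold, where 8.89% of all tested entries passed as lower in males. let-7a-5p was at −1.84 (SE 0.50, adjusted p = 0.0201) and let-7b at −2.35 (SE 0.57, adjusted p = 0.0128). The summed let-7 level was 14210 to 95670 CPM in NT males and 94680 to 277400 CPM in NT females.

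Of the miR-367 seed carriers, 3 of 5 were tested within NT. Of these, 1, miR-92b, passed as lower in males, at −2.64 (SE 0.65, edgeR adjusted p = 0.0129). Of the epithelial markers, 5 were tested and all 5 folds were lower in males, with a median of −0.743. Of these, 1 passed, miR-200c, at −1.93 (SE 0.52, edgeR adjusted p = 0.0201). Over all entries tested within NT, 8.89% passed as lower in males. The epithelial markers summed to 6840 to 32320 CPM in NT males and 16370 to 103100 CPM in NT females. Of the neuronal list 0 entries were tested within NT, and the remaining marker lists gave no call there. The liver miRNA miR-122 was at 1115 to 25590 CPM in males and 236.3 to 3450 CPM in females. Its log2 fold was 2.13 and it was not called. Its unadjusted edgeR p was under 0.05, as it was for 36.7% of the entries tested within NT. Muscle markers summed to 39.4 to 16900 CPM in males and 11.3 to 2324 CPM in females. Mesenchymal markers summed to 1299 to 8575 CPM in males and 1594 to 11730 CPM in females. The neuronal markers miR-124a and miR-124b summed to 0 in males and 0 to 22.5 CPM in females. The part of these cell types in the members' difference was not tested.

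Outside the members, the 5 entries whose log2 CPM over the 28 libraries was most like the mean of the 5 tested members were miR-7 (Spearman rho 0.865), miR-2904 (0.865), miR-2892 (0.853), miR-6119-5p (0.826) and miR-2440 (0.811). The same 5 led after group means were subtracted, with rho of 0.804 to 0.921. miR-7, known as a regulator of growth factor signalling, rose in NT males by 1.83 (SE 0.55, edgeR adjusted p = 0.0271), where 13.3% of the tested entries were called higher. It was picked for its likeness to the members in these same libraries, so this rise is not a separate result. Among the entries of the lists, the strongest negative values were let-7b at −0.847, let-7a-5p at −0.835, let-7c at −0.804 and let-7d at −0.789. Next came let-7f at −0.766, miR-200c at −0.753 and miR-92b at −0.752, with weaker ones, such as miR-141 at −0.662, left out. miR-17-5p was at 0.706 and miR-92a at 0.118.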

How the data were processed

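EV RNA shorter than 200 nt was made into libraries size-selected for 18 to 40 bp, per the labels' protocols. The submitters' processing notes name cutadapt, Bowtie, STAR, featureCounts, DESeq2 and the build ARS-UCD1.2 without assigning them to steps; their rule for reads that match several entries is not stated. The authors deposited whole-number counts per miRNA entry, not normalized; 655 of 1024 entries had a count. From these, log2 CPM (TMM scaling, prior count 2) and tests were computed in R 4.3.3 with edgeR 4.0.16: filterByExpr (minimum count 10, total 15), a quasi-likelihood fit of 6 group means, and for sex within a type a fit of that type's libraries. A type is the mean of its 2 sexes. SE is the fold divided by the root of F. Alternatives used DESeq2 1.42.0, limma 3.58.1, other filters and scalings, covariates and left-out libraries. Simulated data were used to test the scripts. The members, lists and tests were chosen with earlier results of these data known. The named entries were planned as up to 4 of the most abundant of each list and the 5 most like the members' mean, and those printed are mostly a part of these. The strongest negative correlations were instead picked by size and name more than 4 of the let-7 family. Endometrium libraries were not used here.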

Additional observations from a re-analysis of the deposited data

Results flagged for a closer look

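In NT males, miR-302a at 0 CPM and miR-302d at 0 CPM in replicate 2 lay far from the other 6 libraries, with gaps to the nearest of them of 0.626 and 0.611 of the group's range on the log2 scale. In NT females, miR-302c at 86.5 CPM in replicate 2 lay above the other 4, with a gap of 0.732 of the range. These 3 came from 15 member and group combinations looked at, and chance alone marks about 1 in 20 such groups if values are normal. The combinations are not independent, since miR-302a and miR-302d are flagged in the same library. A level of 0 CPM is placed on the log2 scale by the prior count of 2, so these gaps depend on that choice.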

How the results depend on the processing

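Counts of called entries that moved by more than 1.5 times were as follows. For sex within NT (40), they were 20 in the fit of 6 groups, 63 without a filter on low counts, 0 with the share of miR-2887 and miR-2904 as a covariate, and 16 to 50 with 1 library left out (16 without female 3 or male 3, 20 without male 1, 21 without female 4, 24 without male 4 or 6, 26 without male 5). For IVF against in vivo (0), they were 13 with DESeq2, 22 with limma voom, 6 without a filter, and 0 to 21 with 1 library left out. For NT against in vivo (1), they were 0 with DESeq2, voom or the covariate, 6 without a filter, with total count scaling or with the replicate block, and 0 to 5 with 1 library left out. For NT against IVF (3), they were 0 with DESeq2, voom, the covariate or without miR-2887 and miR-2904, 5 without a filter, and 0 to 4 with 1 library left out. NT females against IVF females (0) gave 11 with DESeq2 and 3 with voom, and IVF males against in vivo males (0) gave 6 with voom. NT males against in vivo males (0) gave 23 with DESeq2, 12 with voom, 18 without a filter, 3 with the replicate block and 0 to 24 with 1 library left out, and NT males against IVF males (0) gave 4 without a filter and 0 to 4 with 1 left out. The sex effect in NT minus that in vivo (0) gave 11, and minus that in IVF (0) gave 1, with DESeq2. Member folds changed sign, without a call, in these cases: with the covariate, miR-302a (−0.026) and miR-302c (−0.29) in male against female, miR-302b (−0.20) and miR-302d (−0.052) in NT against in vivo, miR-302b (−0.16) and miR-302c (−1.48) in the NT minus in vivo sex effects, and miR-371 (−1.03) in IVF against in vivo; with the replicate block, miR-302c (−0.18) in male against female; with voom, miR-371 (0.62) in NT against in vivo. With 1 library left out, the range was −0.030 to 1.05 for miR-302b and −1.40 to 2.63 for miR-371 in NT against in vivo, −1.10 to 1.65 for miR-302c in male against female, and −2.76 to 5.39 for miR-302c and −3.17 to 4.87 for miR-371 in the NT minus in vivo sex effects. The causes were not tested. Of the sex calls within NT, total count scaling left miR-371 alone past the threshold, voom left miR-302b and miR-371, and DESeq2 called these with miR-302a and miR-302d. Replicate numbers did not pair the libraries: same-numbered libraries of different groups had a median correlation of deviations of 0.00739 over 53 pairs (20 over 0.1), and 4 of 28 libraries were closest to one of their own number. With the replicate block, 41 entries were called for sex within NT, with an adjusted p of 0.0722 for miR-302a and 0.0496 for miR-302b. At these depths, miR-302c and miR-367 rest on few counts per library.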
